A study of Mus musculus with 15 samples.

Results

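The comparison set untreated MLL-AF9 leukemias that express human GFI1 at a low level (KD) against untreated MLL-AF9 leukemias that carry the 36N variant of human GFI1. It was chosen by the sample labels and rests on 6 of the 15 libraries of the series, 3 KD libraries (numbered 7, 8 and 9 in the labels) and 3 36N libraries (4, 5 and 6). All 6 come from mice labelled C57BL/6 in which a human GFI1 allele stands at the mouse Gfi1 locus. KD mice (GFI1 KD/KD) make 10 to 20% of the usual amount of human GFI1, and 36N mice (GFI1 36N/36N) make a human GFI1 that differs at residue 36. A further 3 untreated libraries, from mice with the common human GFI1 allele (GFI1 KI/KI, called 36S and numbered 1, 2 and 3), were normalized together with them and are given as a point of orientation. The remaining 6 libraries, from cells exposed to temozolomide, were not used.

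In every group, marrow cells depleted of mature lineages had received the MLL-AF9 fusion gene and GFP on a retrovirus, and GFP-positive cells were sorted and given to lethally irradiated mice (7 and 3 Gy). Leukemic marrow was then passed through sublethally irradiated mice (3 Gy), and total marrow of the quaternary recipients was sequenced after poly(A) selection. The titles of the 3 KD libraries and of the 3 36N libraries all end in the same number, whose meaning is not given, and the sources used here do not say whether the mice of a group carried passages of 1 primary leukemia. The p-values below therefore measure the spread between these mice, which may be narrower than the spread between independent leukemias.

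GFI1 is a zinc finger repressor of transcription that recruits histone demethylase and deacetylase complexes to its target genes. In the marrow it restrains the cycling of stem cells, and it favours the granulocyte fate over the monocyte fate. MLL-AF9 is a fusion of a chromatin regulator with a transcription elongation factor that keeps HOXA cluster genes and MEIS1 active and blocks myeloid cells in an immature, often monocytic, state.

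Values are counts per gene that the authors had scaled between libraries (normalized counts), and they are given in the order of the library numbers. The column totals, in units of 1e6, were 13.03, 11.65 and 12.92 in KD, against 11.64, 11.49 and 11.44 in 36N and 11.93, 11.38 and 11.27 in 36S. KD library 8 stood apart, since its median distance from the other 2 KD libraries was 0.33 on the log2 scale, against 0.15 to 0.26 for the other 8 libraries from their own group. The marrow held the markers of a granulocyte-monocyte leukemia. The 5 monocyte markers fixed for the check summed to between 83995 and 135353 in KD, against 48646 to 55179 in 36N, and the 9 neutrophil markers to between 32507 and 43670 in KD, against 47493 to 54641 in 36N. Erythroid markers summed to under 160 in KD and under 35 in 36N libraries 4 and 5, but to 918 in 36N library 6. The mouse Gfi1 transcript was not analysed here.

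Of 18075 genes, 13118 reached a value of 10 in at least 3 of the 6 libraries and were tested with limma-trend on log2(normalized count + 1), with Benjamini-Hochberg adjustment. A gene under 10 in all libraries of 1 group was tested only if all 3 libraries of the other group reached 10. Such genes differ between the groups by that rule, which can raise the share called in lists that hold them. At an adjusted p under 0.05, 425 genes were called, which is 3.24% of the genes tested. Of these, 266 (2.03%) were higher and 159 (1.21%) were lower in KD than in 36N. The call held at 2-fold or more for 287 genes (2.19%), 166 of them higher and 121 lower. For 22.6% of all genes tested the 3 KD libraries lay wholly above or below the 3 36N libraries, and this was so for each of the 425 called genes. The median log2 fold change of all genes was -0.01. When the libraries were brought to equal totals instead, that median moved to -0.13 and the calls split evenly, 176 higher and 178 lower, so the surplus of higher calls depends on the scaling. Each fold change below is KD minus 36N on the log2(normalized count + 1) scale, which understates the change of low genes. The counts also depended on single libraries: 2018 genes were called without KD library 8 and 138 without KD library 9, and 116 of the 425 (73 higher, 43 lower) were called in each of the 6 fits that left out 1 library. Of all 13118 genes, 1078 were higher and 940 lower without KD 8, 156 and 106 without KD 7, and 76 and 62 without KD 9. They were 149 and 66 without 36N 4, 126 and 60 without 36N 5, and 224 and 100 without 36N 6. List counts from these fits are to be read beside these totals.

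**Figure D1:**
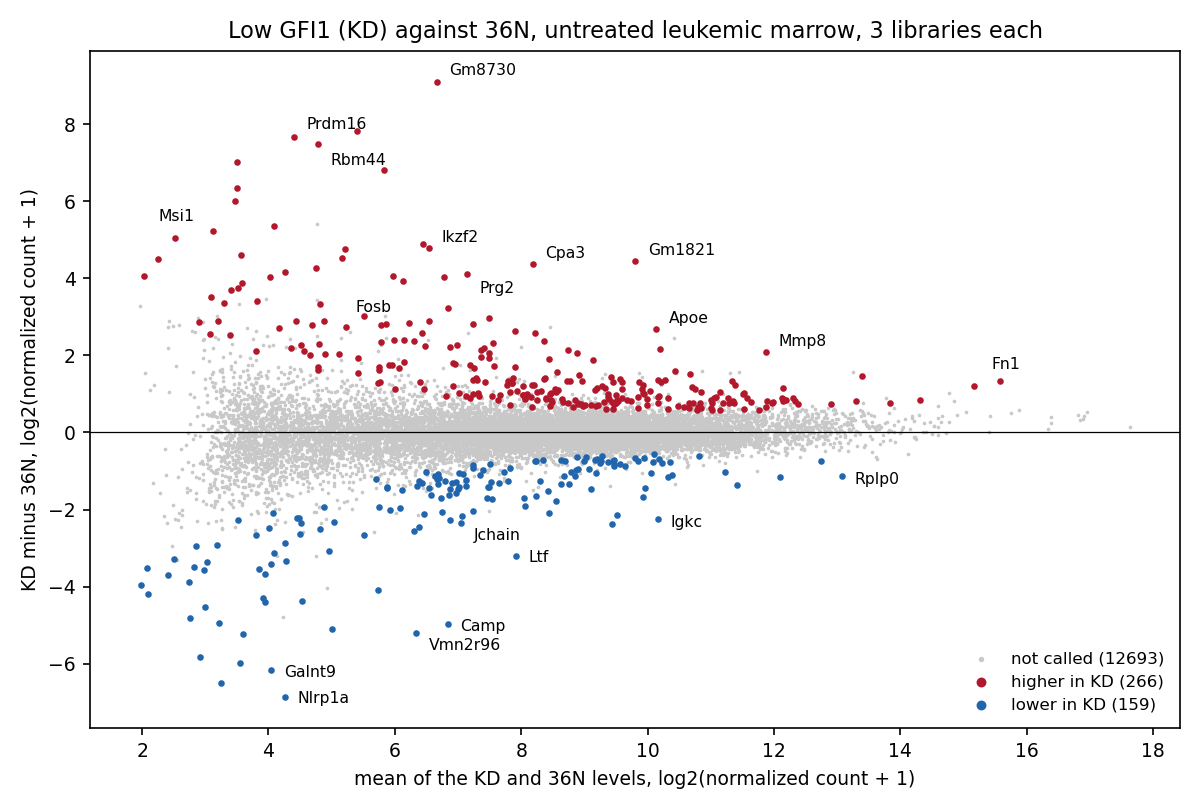
Each dot is 1 of the 13118 genes tested, with the mean of the KD and 36N levels on the x axis and the KD minus 36N difference on the y axis, both on the log2(normalized count + 1) scale. Red dots are the 266 genes called higher in KD and blue dots the 159 called lower; the largest differences, beyond 6 in either direction, include Prdm16, Rbm44 and the pseudogene Gm8730 on the high side and Nlrp1a and Galnt9 on the low side.

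Of 26 tested stem and progenitor genes 3 were higher in KD marrow and 1 was lower, and the gene with the largest change read near 0 in 36N marrow. Prdm16, a zinc finger histone methyltransferase that maintains blood stem cells, read 307, 310.2 and 288 in KD libraries, against 0.348, 0 and 1.44 in 36N libraries (log2 fold change 7.67 ± 0.44 (SE), adjusted p = 1.36e-05). Its 36S values were 3.64, 7.26 and 0, so both other untreated groups read near 0. Ikzf2, which encodes the Ikaros family factor Helios, read 536, 569.8 and 376 in KD libraries, against 44.6, 15.4 and 6.36 in 36N libraries (log2 fold change 4.79 ± 0.53 (SE), adjusted p = 9.30e-04), and 18.8, 0.441 and 2.67 in 36S. Gata2, a factor of stem cells and of the mast cell lineage, was 1229.9, 1013 and 1017 in KD and 414, 273 and 219 in 36N (log2 fold change 1.89 ± 0.22 (SE), adjusted p = 0.00116). Against this, Flt3, the receptor tyrosine kinase of early progenitors and a target of MLL fusions, was lower at 727, 504 and 609.8 in KD and 1753, 2272 and 1106 in 36N (log2 fold change -1.43 ± 0.24 (SE), adjusted p = 0.0118). The KD and 36N libraries did not overlap for any of the 4 genes. These were the 4 called genes of the list, 15.4% against 3.24% of all genes, and its median log2 fold change was 0.48. Kit, the stem cell factor receptor, was not called at 524, 293 and 332 in KD and 513, 355 and 161 in 36N (log2 fold change 0.27 ± 0.37 (SE), adjusted p = 0.738). The calls of Prdm16, Ikzf2 and Gata2 held in each of the 6 fits that left out 1 library. Flt3 missed the threshold without KD 9 (adjusted p = 0.0539). Flt3 also missed it in a fit of all 9 untreated libraries (adjusted p = 0.0685). Without KD 8 the list had 7 members higher and 2 lower.

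HOX genes are central to the MLL-AF9 programme. In the HOXA and HOXB list 2 of 11 tested genes were higher and none lower (18.2% against 3.24% of all genes). Hoxb4, a HOXB gene known for expanding stem cells, read 58.1, 57.7 and 80.3 in KD libraries, against 5.62, 0 and 8.73 in 36N libraries (log2 fold change 4.03 ± 0.76 (SE), adjusted p = 0.0192), and the 36S libraries, at 62.6, 59.4 and 71.5, lay at the KD level. Hoxa5 read 515, 815 and 669.6 in KD libraries, against 213, 342 and 144 in 36N libraries (log2 fold change 1.58 ± 0.29 (SE), adjusted p = 0.0167), and again 36S (934, 995 and 966) lay nearer to KD than to 36N. Hoxa9, the HOXA gene most tied to MLL leukemia, was 2629, 2156 and 2198 in KD and 2236, 2331 and 1039.7 in 36N (log2 fold change 0.40 ± 0.27 (SE), adjusted p = 0.453), and its cofactor Meis1 was 888, 1169 and 833 in KD and 1083, 1503 and 1518 in 36N (log2 fold change -0.50 ± 0.18 (SE), adjusted p = 0.174), so neither was called. Of the 24 tested MLL-fusion targets 1 was higher and 2 were lower (12.5%), and their median was -0.06. None of the 32 genes of the MLL, menin, DOT1L and elongation complexes was called. Without KD 8, 1 was higher and 5 lower, against 1078 and 940 of all 13118 genes. Myc, at 2714, 2062 and 2609.8 in KD and 2999, 3252 and 2555 in 36N, was not called either (adjusted p = 0.402). Hoxb4 missed the threshold without any 1 of KD 7 or 9, with the highest adjusted p at 0.107. Hoxa5 missed the threshold without any 1 of KD 9 or 36N 4, with the highest adjusted p at 0.0793. No HOX gene was called without KD 9, and 1 was called without KD 7 or 36N 4. The MLL-fusion targets called were 2 higher and 8 lower without KD 8, 1 higher and 4 lower without 36N 6, 0 higher and 1 lower without KD 9, and 0 higher and 2 lower without 36N 4.

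Part of the monocyte and macrophage list was higher in KD marrow, and no member was called lower. Of 37 tested members 8 were higher in KD and none lower, which is 21.6% against the 2.03% of all genes called higher, and 30 of the 37 had a positive fold change (median 0.51). Apoe, the lipid carrier that macrophages secrete, read 2808, 2358 and 3478 in KD libraries, against 466, 391 and 473 in 36N libraries (log2 fold change 2.68 ± 0.17 (SE), adjusted p = 2.03e-05). Cd14, the coreceptor for bacterial lipopolysaccharide, read 150.4, 165 and 232 in KD libraries, against 27.9, 33.3 and 40.8 in 36N libraries (log2 fold change 2.38 ± 0.27 (SE), adjusted p = 0.00105). Fn1, which encodes the matrix protein fibronectin, was 66011, 81560.0 and 85050.4 in KD and 32218, 37996 and 23917 in 36N (log2 fold change 1.32 ± 0.24 (SE), adjusted p = 0.0145), and Ly6c2, a surface antigen of inflammatory monocytes, was 61589.6, 40568 and 69333 in KD and 26162, 25349 and 21368 in 36N (log2 fold change 1.20 ± 0.24 (SE), adjusted p = 0.0234). Ccr2, the chemokine receptor by which monocytes leave the marrow, was 3089, 3267 and 3774 in KD and 1466, 1705 and 2385 in 36N (log2 fold change 0.89 ± 0.18 (SE), adjusted p = 0.0283), and Itgam, the alpha chain of the myeloid integrin CD11b, was 6201, 6385 and 6301 in KD and 2949, 3498 and 4149 in 36N (log2 fold change 0.85 ± 0.15 (SE), adjusted p = 0.0146). The groups did not overlap for these 6 genes. Ctss and Fcgr3 were the other called members. In bulk marrow, more cells of a type and more RNA per cell of that type cannot be told apart. The monocyte marker sum given above was also higher in KD, but it includes Ly6c2 and Ccr2 and is not independent of these calls. The calls of Apoe and Cd14 held in each of the 6 fits that left out 1 library. Fn1 missed the threshold without any 1 of KD 9 or 36N 4 or 6, with the highest adjusted p at 0.0802. Itgam missed the threshold without any 1 of KD 9 or 36N 4 or 5, with the highest adjusted p at 0.0828. Ccr2 missed the threshold without any 1 of KD 7 or 9 or 36N 4 or 5, with the highest adjusted p at 0.136. Ly6c2 missed the threshold without any 1 of KD 7 or 9 or 36N 4, 5 or 6, with the highest adjusted p at 0.116. Fn1 also missed it with quantile normalization (adjusted p = 0.114) and in a fit of all 9 untreated libraries (0.0984), and Ccr2 with equal totals (0.0698). The count of members higher was 14 without KD 8, 4 without KD 7, 2 without KD 9, 2 without 36N 4, 3 without 36N 5 and 5 without 36N 6.

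In the list of C/EBP, PU.1 and other granulocyte-monocyte factors 5 of 34 genes were higher and none lower (14.7% against 3.24%). They were Cebpd and the immediate early genes Egr2, Jun, Fos and Klf2, with log2 fold changes of 2.89, 2.06, 1.35 and 0.76 for the last 4. Irf8, a regulator of monocyte fate, read 6605, 6669 and 6645 in KD libraries, against 5004, 5109 and 4915 in 36N libraries (log2 fold change 0.41 ± 0.13 (SE), adjusted p = 0.123). Csf1r, the receptor for the macrophage growth factor, read 6025, 5356 and 6977 in KD libraries, against 3905, 3766 and 5244 in 36N libraries (log2 fold change 0.51 ± 0.17 (SE), adjusted p = 0.146). Spi1, which encodes PU.1, was 4806, 4574 and 5552 in KD and 3828, 3928 and 4087 in 36N (adjusted p = 0.22), and Cebpa was 1254, 1264 and 1708 in KD and 1348, 1328 and 1188 in 36N (adjusted p = 0.722). The KD libraries lay above the 36N libraries for Irf8, Csf1r and Spi1, but none of the 4 passed the threshold, and such separation occurred in 22.6% of all genes. Cebpd, an acute phase factor and the C/EBP gene called, was 1011, 812 and 1147 in KD and 529, 497 and 639 in 36N (log2 fold change 0.83 ± 0.17 (SE), adjusted p = 0.0274). Cebpd missed the threshold without any 1 of KD 7 or 9 or 36N 4 or 5, with the highest adjusted p at 0.138.

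Some genes for uptake, digestion and antigen presentation were higher in KD, and most did not pass the test. Of 43 tested lysosome and phagocytosis genes 6 were higher and none lower (13.95%, against 2.03% of all genes called higher; median 0.37). The shares called higher were 20.0% in the class II list and 12.9% in the integrin and adhesion list, both given below. Ctsh, which encodes the protease cathepsin H, was 4737, 3253 and 4879.7 in KD and 1928, 2040.2 and 2240.3 in 36N (log2 fold change 1.03 ± 0.17 (SE), adjusted p = 0.0112). Ctss, which encodes cathepsin S, was 5882, 4018 and 6501 in KD and 3052, 2915 and 3282 in 36N (log2 fold change 0.80 ± 0.18 (SE), adjusted p = 0.0436). Hexa, a lysosomal hexosaminidase subunit, was 3665, 2865 and 4009.9 in KD and 2001, 1996 and 1882 in 36N (log2 fold change 0.83 ± 0.15 (SE), adjusted p = 0.0155). In the class II list 2 of 10 were higher, H2-Aa, an MHC class II alpha chain, at 193, 223 and 377 in KD and 84.6, 79.2 and 127 in 36N (log2 fold change 1.41 ± 0.29 (SE), adjusted p = 0.0272), and Cd74, the invariant chain that guides class II molecules, at 1295, 1846 and 2739 in KD and 665, 566 and 1111 in 36N (log2 fold change 1.32 ± 0.29 (SE), adjusted p = 0.0376). No class I gene was called among 20, although their median was 0.25. Of 31 integrin and adhesion genes 4 were higher, with Itgb7, a beta chain that pairs with the alpha 4 chain, at 4189, 3442 and 4712 in KD and 1637, 1544 and 2049 in 36N (log2 fold change 1.24 ± 0.16 (SE), adjusted p = 0.00271), and Itgb2, the partner of Itgam, at 4130.3, 3724 and 4687 in KD and 2288, 2397 and 2599 in 36N (log2 fold change 0.78 ± 0.14 (SE), adjusted p = 0.0137). The call of Itgb7 held in each of the 6 fits that left out 1 library. Ctsh, H2-Aa, Cd74 and Itgb2 missed the threshold without any 1 of KD 9 or 36N 4 or 5, with the highest adjusted p at 0.0571, 0.123, 0.154 and 0.0862. Hexa missed the threshold without any 1 of KD 7 or 9 or 36N 4 or 5, with the highest adjusted p at 0.0849. Ctss missed the threshold without any 1 of KD 7 or 9 or 36N 4, 5 or 6, with the highest adjusted p at 0.189. With equal totals Ctss and Cd74 also missed it (adjusted p = 0.0614 and 0.0768), and Ctss did in a fit of all 9 untreated libraries (0.054). The lysosome count higher was 20 without KD 8 (against 1078 of all 13118 genes), 1 without KD 7 or 36N 4, 4 without 36N 6 and 0 without KD 9 or 36N 5. The integrin count was 6 without KD 8, 2 without 36N 4 and 1 without KD 9 or 36N 5. The class II count was 4 without KD 8, 3 without KD 7 and 0 without KD 9, 36N 4 or 36N 5, and 1 with equal totals.

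Several mast cell, basophil and eosinophil genes were higher in KD marrow. Cpa3, the carboxypeptidase of mast cell granules, read 1297, 1223 and 1452 in KD libraries, against 300.1, 19.7 and 40.6 in 36N libraries (log2 fold change 4.37 ± 0.74 (SE), adjusted p = 0.0114), and the 36S libraries, at 314, 142 and 189.7, averaged between them. Hdc, the enzyme that makes histamine, read 347, 314 and 310.4 in KD libraries, against 120.4, 69.4 and 68.5 in 36N libraries (log2 fold change 1.95 ± 0.24 (SE), adjusted p = 0.00181), and the 36S values of 537, 255 and 137 spanned the KD range. Of 15 tested genes of the mast cell and basophil list 6 were higher and none lower, 40.0% against 2.03%, and the other called members besides Gata2 were Gzmb, Cd63 and Alox5. Prg2 and Prg3 encode the major basic proteins of eosinophil granules. Prg2 read 1372, 295 and 496 in KD libraries, against 117, 15.2 and 19.4 in 36N libraries (log2 fold change 4.11 ± 0.72 (SE), adjusted p = 0.0127), and Prg3 read 497, 153 and 261 in KD libraries, against 28.8, 10.4 and 15.6 in 36N libraries (log2 fold change 3.93 ± 0.46 (SE), adjusted p = 0.00116). KD library 7 was the highest for both, but all 3 KD libraries lay above all 36N libraries. Siglecf, a sialic acid receptor of eosinophils, read 1009.8, 557 and 691 in KD libraries, against 152, 123 and 92.5 in 36N libraries (log2 fold change 2.59 ± 0.25 (SE), adjusted p = 4.30e-04). Rnase2a, an eosinophil-associated ribonuclease, went the other way, at 3.3, 6.36 and 4.97 in KD and 54.4, 69.2 and 31.4 in 36N (log2 fold change -3.13 ± 0.48 (SE), adjusted p = 0.0069), and 36S (3.31, 3.72 and 1.94) was as low as KD. Of 9 eosinophil genes tested, 3 were higher and 1 lower (44.4%, against 3.24% of all genes called). The mast cell and basophil markers of the fixed check summed to between 1281 and 1489 in KD, against 67.1 to 407 in 36N, where Prss34 was under 1 in all 3 libraries. The eosinophil markers summed to between 895 and 2436 in KD, against 145 to 305 in 36N. Most of each KD sum came from genes named above, Cpa3 in the first and Prg2 and Siglecf in the second. Without these genes the remaining markers of either sum overlapped between KD and 36N. The part of mast cells, basophils and eosinophils in the values was not tested. The calls of Hdc, Prg3 and Siglecf held in each of the 6 fits that left out 1 library. Cpa3 and Prg2 missed the threshold without KD 9 (adjusted p = 0.0559 and 0.0531). Rnase2a missed the threshold without 36N 5 (adjusted p = 0.0587). Cpa3 and Prg2 also missed it with a robust trend (adjusted p = 0.111 and 0.0807). The mast cell count was 3 without KD 7, 2 without KD 9, 3 without 36N 6 and 3 with equal totals, against 7 without KD 8. The eosinophil count higher was 5 without KD 8 and 2 without KD 9.

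**Figure D2:**
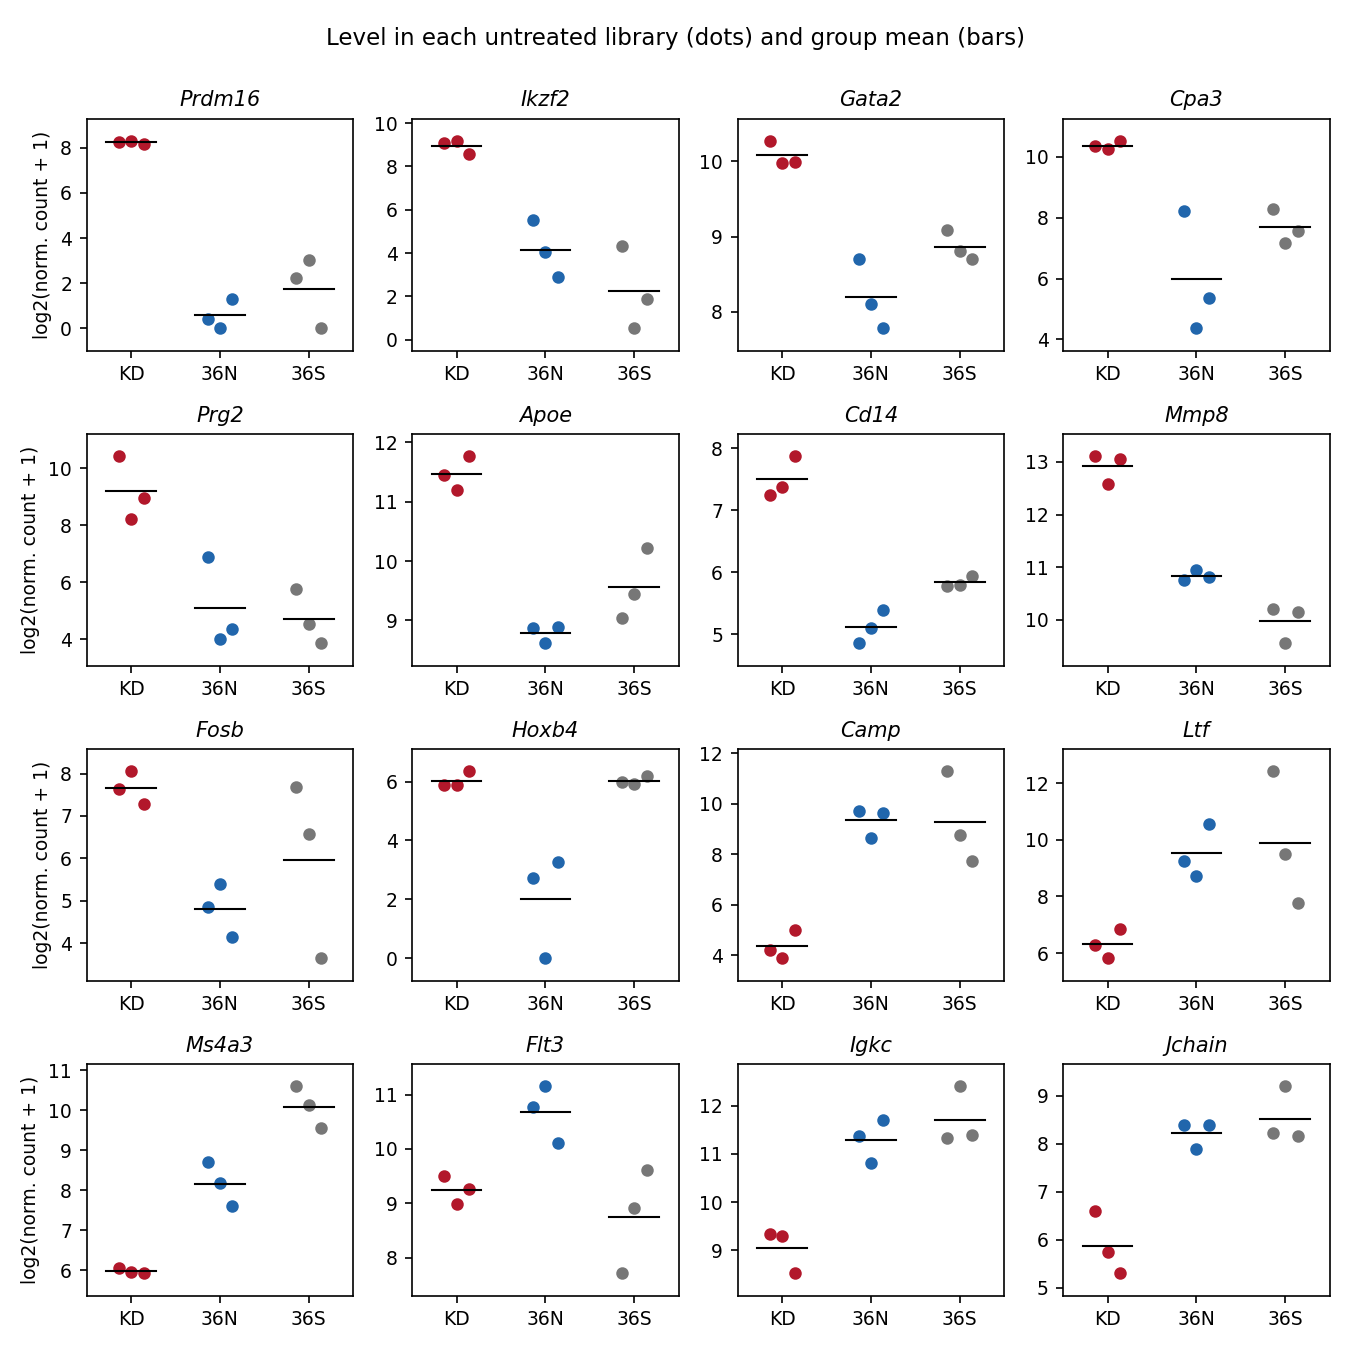
Each panel shows 1 gene in the untreated libraries, with KD in red, 36N in blue and 36S in grey from left to right; dots are libraries, bars are group means, and the y axis is log2(normalized count + 1) on a scale of its own. In the panels from Prdm16 to Hoxb4 all 3 KD dots lie above all 36N dots, and in those from Camp to Jchain all 3 lie below.

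Granule genes of neutrophils were called in both directions. Camp, the antimicrobial peptide cathelicidin of secondary granules, read 17.2, 13.7 and 30.9 in KD libraries, against 827, 401 and 801 in 36N libraries (log2 fold change -4.98 ± 0.36 (SE), adjusted p = 5.59e-05). Ltf, which encodes lactoferrin of the same granules, read 76.1, 55.4 and 113 in KD libraries, against 612, 424 and 1505 in 36N libraries (log2 fold change -3.21 ± 0.41 (SE), adjusted p = 0.00228), and Wfdc21, a small secreted protein of maturing neutrophils, read 2.12, 7.55 and 3.89 in KD libraries, against 105, 53 and 199 in 36N libraries (log2 fold change -4.37 ± 0.56 (SE), adjusted p = 0.00218). Ngp and S100a8 were the other late genes called lower. Within the same list of 30 tested genes 4 were higher, and Mmp8, neutrophil collagenase, had the largest rise among them, at 8808, 6112 and 8543 in KD and 1718, 1959 and 1802 in 36N (log2 fold change 2.08 ± 0.16 (SE), adjusted p = 1.11e-04). The other 3 were Anxa1, Cd177 and Padi4, with log2 fold changes of 1.05, 1.0 and 0.87. The list thus had 5 lower and 4 higher, and its median was 0.45. In 36S the late genes spread widely, with Camp at 2477, 437 and 212 and Ltf at 5443, 718 and 219, while Mmp8, at 1184, 750.4 and 1136, was below both other groups. The calls of Camp, Ltf, Wfdc21 and Mmp8 held in each of the 6 fits that left out 1 library. Ngp and S100a8 missed the threshold without any 1 of KD 9 or 36N 4 or 6, with the highest adjusted p at 0.161 and 0.109. In a fit of all 9 untreated libraries, which takes in the spread of 36S, Ltf missed the threshold (adjusted p = 0.0676) and 2 late genes were called lower; 3 were with a robust trend. Leaving out 1 library gave 2 to 9 late genes higher, the 2 without KD 9 or 36N 4 and the 9 without KD 8, and 3 to 6 lower, the 3 without KD 9, 36N 4 or 36N 6.

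Members of the primary granule list, named for granules that promyelocytes make, were also called in both directions. Elane, neutrophil elastase, read 10331, 8861 and 11020.1 in KD libraries, against 15145, 14046 and 13892 in 36N libraries (log2 fold change -0.52 ± 0.15 (SE), adjusted p = 0.108), and Mpo, myeloperoxidase, read 16009.7, 13003 and 13573 in KD libraries, against 18759.8, 17540.4 and 14736 in 36N libraries (log2 fold change -0.26 ± 0.17 (SE), adjusted p = 0.441); neither was called, and in 36S both were higher (Elane 46491, 33262 and 25815, Mpo 77508, 51635 and 26502). Ms4a3, a membrane protein of granulocyte-monocyte progenitors, was lower at 65.8, 61.2 and 59.6 in KD and 417, 288 and 192 in 36N (log2 fold change -2.18 ± 0.27 (SE), adjusted p = 0.002), and Fcnb, a lectin of immature granulocytes, was lower at 53.7, 52.7 and 53.7 in KD and 180.1, 125 and 203 in 36N (log2 fold change -1.62 ± 0.25 (SE), adjusted p = 0.00654). Mgst1, a microsomal glutathione transferase, was higher at 992, 731 and 1205 in KD and 466, 458 and 362 in 36N (log2 fold change 1.16 ± 0.20 (SE), adjusted p = 0.0114). Of 14 tested members of the primary granule list 3 were higher and 3 lower (42.9%, against 3.24% of all genes called). The higher members were Hdc, given above with the mast cell genes, and the glutathione transferase genes Mgst1 and Gstm1. The lower members were Ms4a3, Fcnb and Prss57. The calls of Ms4a3 and Fcnb held in each of the 6 fits that left out 1 library. Mgst1 missed the threshold without KD 9 (adjusted p = 0.0559). In the fit of all 9 untreated libraries Fcnb missed the threshold (adjusted p = 0.179) and 1 primary granule gene was called lower. Elane was called lower with equal totals (adjusted p = 0.0404) and with quantile normalization (0.0161). The higher count was 1 without KD 9 and 5 without KD 8.

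The promoters of these genes were searched for 2 short motifs, the GFI1 core AAATCAC and the C/EBP motif TTNNGCAA, on both strands and within 250 bases before to 50 bases after the start, in RefSeq sequences of build GRCm38.p6. The GFI1 core was present in 3.16% of 27025 promoters and in 2.24% of the 10009 promoters of genes tested. It was present in 5 of the 191 promoters of genes called higher (2.62%) and in 8 of the 107 of genes called lower (7.48%). The C/EBP motif was present in 10.8% of all promoters, in 8.67% of those of genes tested, in 12.04% of those called higher and in 15.9% of those called lower. These matches describe letters and not binding, and these promoters were picked after the values were seen. Of the printed promoters, Mmp8 and Ccr2 belong to genes higher in KD and Ltf and Ngp to genes lower in KD; capitals mark the GFI1 core in Mmp8 and Ccr2 (on the other strand in Ccr2), both motifs in Ltf, and the C/EBP motif on either strand in Ngp. The windows are chr9:7558179-7558478 for Mmp8, chr9:124101933-124102232 for Ccr2, chr9:111019042-111019341 for Ltf and chr9:110419558-110419857 for Ngp, all on the plus strand.
Mmp8: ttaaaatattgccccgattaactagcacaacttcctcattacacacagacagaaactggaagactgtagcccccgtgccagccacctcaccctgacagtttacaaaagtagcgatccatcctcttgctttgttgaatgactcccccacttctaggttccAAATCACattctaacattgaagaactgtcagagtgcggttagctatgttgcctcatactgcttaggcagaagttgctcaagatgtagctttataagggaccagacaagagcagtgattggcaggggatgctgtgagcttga
Ccr2: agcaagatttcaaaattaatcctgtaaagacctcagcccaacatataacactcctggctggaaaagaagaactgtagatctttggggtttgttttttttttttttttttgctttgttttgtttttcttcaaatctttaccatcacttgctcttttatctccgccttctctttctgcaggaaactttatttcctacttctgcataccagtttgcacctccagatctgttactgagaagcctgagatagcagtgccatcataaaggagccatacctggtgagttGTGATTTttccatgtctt
Ltf: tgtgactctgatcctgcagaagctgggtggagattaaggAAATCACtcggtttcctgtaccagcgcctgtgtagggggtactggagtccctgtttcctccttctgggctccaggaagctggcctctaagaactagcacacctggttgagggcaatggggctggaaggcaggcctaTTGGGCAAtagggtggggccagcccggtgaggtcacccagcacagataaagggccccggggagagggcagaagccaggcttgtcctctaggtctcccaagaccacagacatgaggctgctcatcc
Ngp: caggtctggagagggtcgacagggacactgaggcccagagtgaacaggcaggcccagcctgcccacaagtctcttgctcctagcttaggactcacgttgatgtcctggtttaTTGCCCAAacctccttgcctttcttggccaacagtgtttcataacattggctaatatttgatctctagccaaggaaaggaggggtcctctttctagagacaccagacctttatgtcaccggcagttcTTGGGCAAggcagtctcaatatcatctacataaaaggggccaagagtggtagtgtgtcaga
Among the 27 promoters of tested late neutrophil genes, 9 held the C/EBP motif (33.3%) and 3 the GFI1 core (11.1%), while the Camp and S100a8 windows hold no C/EBP match.

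Immediate early genes are those whose transcription rises within minutes of a stimulus. Of 30 tested members 7 were higher and none lower (23.3% against 2.03%), with a median of 0.45. Egr2, a zinc finger factor of the monocyte programme, read 45.4, 56.9 and 74.7 in KD libraries, against 11.1, 6.58 and 4.42 in 36N libraries (log2 fold change 2.89 ± 0.44 (SE), adjusted p = 0.0069). The AP-1 subunit genes Fosb, Jun and Fos were called together. Fosb read 198, 264 and 154 in KD libraries, against 28.1, 41.4 and 16.7 in 36N libraries (log2 fold change 2.85 ± 0.35 (SE), adjusted p = 0.00164), Jun read 363, 398 and 341 in KD libraries, against 90.1, 116 and 63.2 in 36N libraries (log2 fold change 2.06 ± 0.23 (SE), adjusted p = 0.00107), and Fos read 306, 427 and 334 in KD libraries, against 139, 142 and 133 in 36N libraries (log2 fold change 1.35 ± 0.18 (SE), adjusted p = 0.00318). In 36S, Fosb (205, 95 and 11.5) and Jun (496, 256 and 95.1) spread over both groups. Dusp1, Klf2 and Ier2 completed the list of calls, and Hspa1a, a heat shock chaperone that handling of cells can also raise, was higher as well, at 84.3, 212 and 169 in KD and 25.4, 35.5 and 21 in 36N (log2 fold change 2.39 ± 0.37 (SE), adjusted p = 0.0071). The part of cell handling in these values was not tested. The calls of Fosb, Jun and Fos held in each of the 6 fits that left out 1 library. Egr2 and Hspa1a missed the threshold without KD 9 (adjusted p = 0.0559 and 0.0511). Fosb missed it in a fit of all 9 untreated libraries (adjusted p = 0.0662). The immediate early count was 10 without KD 8 and 4 without KD 9.

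Of 32 tested genes that GFI1 is known to repress 2 were higher, Egr2 (above) and Klf2 at 933, 875 and 1020.4 in KD and 577, 538 and 553 in 36N (log2 fold change 0.76 ± 0.13 (SE), adjusted p = 0.0128), and none was lower, so 6.25% were called against 3.24% of all genes. The list's median was 0.10, and -0.02 with equal totals, where 2 members were called lower. None of 29 GFI1, LSD1 and CoREST complex genes was called (median -0.06; without KD 8, 1 higher and 2 lower). Klf2 missed the threshold without any 1 of KD 9 or 36N 5, with the highest adjusted p at 0.0842. Without KD 8, 8 GFI1-repressed genes were higher and 4 lower, against 1078 and 940 of all 13118 genes. The GFI1-repressed count higher was 3 without 36N 4, 1 without 36N 5 and 0 without KD 9.

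**Figure D3:**
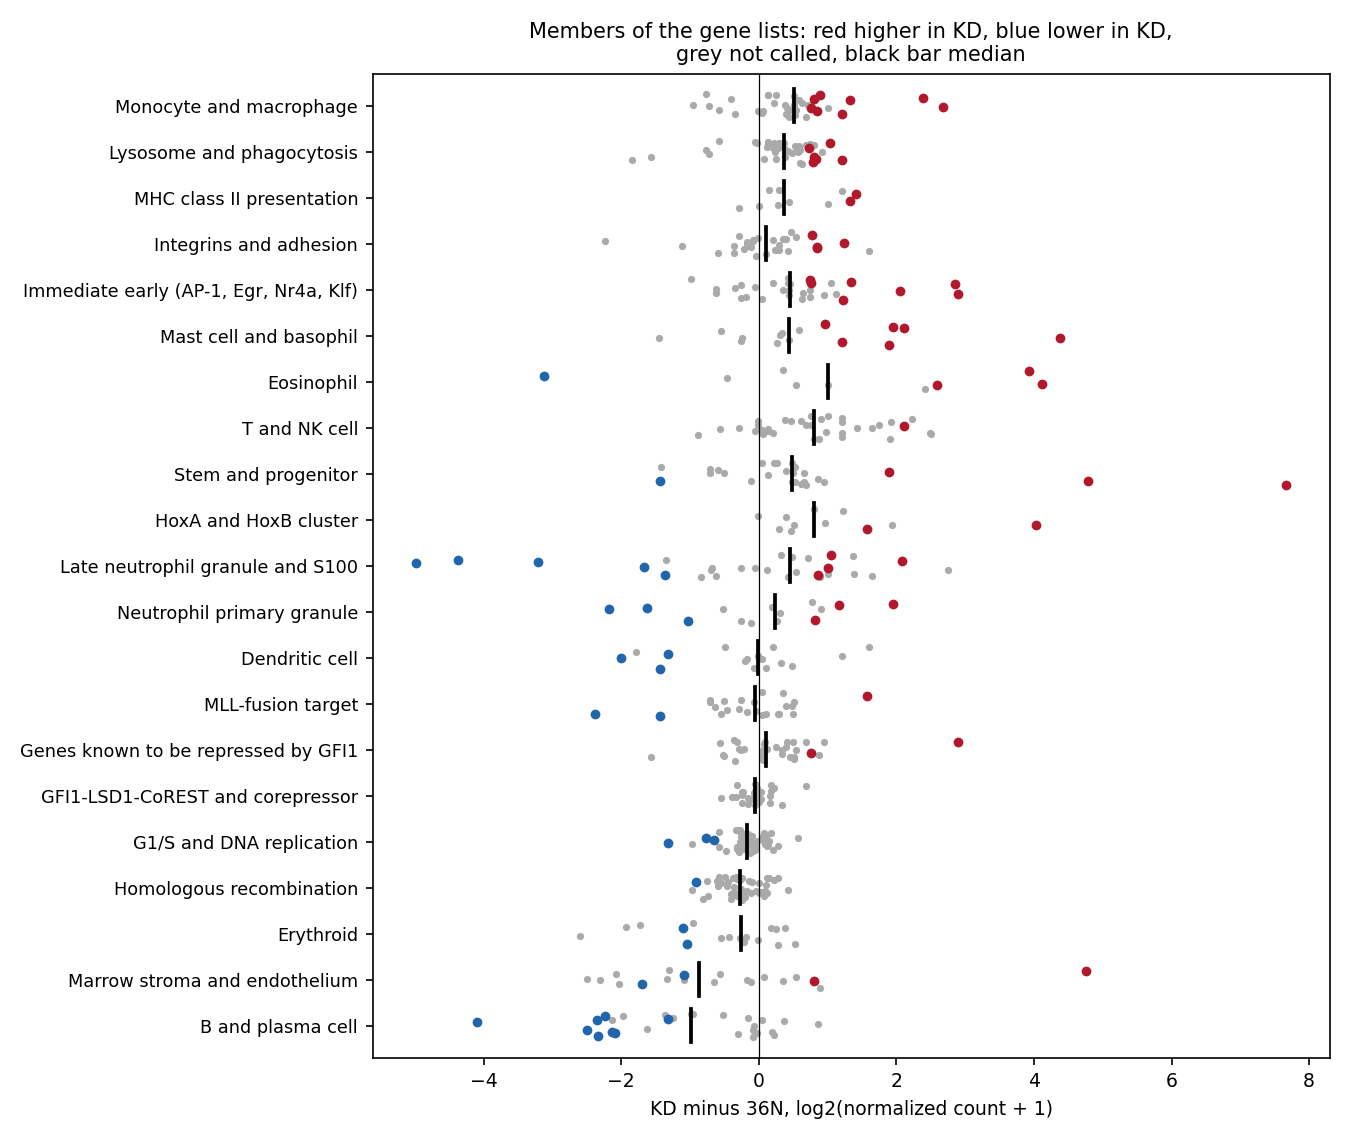
Each row is a gene list and each dot a tested member, placed by its KD minus 36N difference on the log2(normalized count + 1) scale; red dots were called higher in KD, blue dots lower, grey dots were not called, and black bars are medians. The called members of the monocyte, lysosome, immediate early and mast cell lists all lie to the right, those of the B and plasma cell list all to the left, and the neutrophil lists have both.

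Many immunoglobulin transcripts were lower in KD marrow. Of 23 tested immunoglobulin genes 13 were lower and none higher, their median log2 fold change was -2.44, and 21 had a negative sign. Over all genes tested 1.21% were called lower. Igkc, the kappa light chain constant gene, read 645, 629 and 367 in KD libraries, against 2633, 1789 and 3348 in 36N libraries (log2 fold change -2.24 ± 0.26 (SE), adjusted p = 0.00117), Igha, the constant gene of IgA, read 560.1, 371 and 207 in KD libraries, against 2133, 1386 and 1241 in 36N libraries (log2 fold change -2.14 ± 0.32 (SE), adjusted p = 0.00654), and Ighg2b read 14.5, 10.2 and 11.5 in KD libraries, against 153, 158 and 438 in 36N libraries (log2 fold change -4.09 ± 0.41 (SE), adjusted p = 4.84e-04). Jchain, which links IgA and IgM units in plasma cells, read 95.4, 52.1 and 38.3 in KD libraries, against 334, 237 and 334 in 36N libraries (log2 fold change -2.35 ± 0.32 (SE), adjusted p = 0.00306). Irf4, a factor that plasma cells and dendritic cells need, was 40.3, 72 and 53.1 in KD and 115, 146 and 149 in 36N (log2 fold change -1.32 ± 0.27 (SE), adjusted p = 0.0283). Ighm, which early B cells also transcribe, was not called, at 5170.0, 5096 and 5849 in KD and 3737, 3945 and 6973 in 36N (adjusted p = 0.67). The wider B and plasma cell list had 8 of 27 lower and none higher (29.6%, median -0.99). The B and plasma cell markers of the fixed check, which include Ighm, summed to between 6090 and 6698 in KD, against 6422 to 11034 in 36N, so these sums overlapped. The calls of Igkc, Igha, Ighg2b and Jchain held in each of the 6 fits that left out 1 library. Irf4 missed the threshold without any 1 of KD 7 or 9 or 36N 4, 5 or 6, with the highest adjusted p at 0.13. The list count lower was 5 without KD 9 or 36N 5 and 4 without 36N 4 or 36N 6.

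Against 3.24% of all genes, 4 of 20 stroma and endothelium genes were called (20.0%), 3 of 17 dendritic cell genes (17.6%), 2 of 18 erythroid genes (11.1%) and 1 of 35 T and NK cell genes (2.86%). Postn, the matrix protein periostin, was higher, at 425, 106 and 154 in KD and 7.61, 4.42 and 6.76 in 36N (log2 fold change 4.75 ± 0.49 (SE), adjusted p = 5.75e-04), and Lpl, lipoprotein lipase, was higher at 5489.5, 6032 and 6391 in KD and 3667, 3909 and 2751 in 36N (log2 fold change 0.81 ± 0.16 (SE), adjusted p = 0.0251). Cxcl12, the chemokine by which marrow stroma holds stem cells, was lower at 62, 215 and 66.6 in KD and 293, 294 and 363 in 36N (log2 fold change -1.70 ± 0.40 (SE), adjusted p = 0.0496), and Igfbp4, a binding protein of insulin-like growth factors, was lower at 945, 931 and 872 in KD and 2263, 2043 and 1612 in 36N (log2 fold change -1.09 ± 0.15 (SE), adjusted p = 0.00336). The 20 stroma and endothelium genes had a median of -0.87, and the 5 stroma markers summed to between 83.5 and 284 in KD, against 359 to 561 in 36N. Tfrc, the transferrin receptor, and Slc25a37, the mitochondrial iron importer, were the 2 erythroid genes lower among 18. Mgl2, a lectin of macrophages and dendritic cells, was 32.3, 22 and 34.7 in KD and 89.6, 131 and 148 in 36N (log2 fold change -2.01 ± 0.30 (SE), adjusted p = 0.0066), the lowest of 3 dendritic cell genes called lower among 17. T and NK cell genes had a median of 0.80 over 35 members with 1 call, Gzmb, and the 8 markers of these cells summed to 160, 458 and 600.4 in KD, against 74.3, 149 and 111 in 36N. Their part in the Gzmb value was not tested. The calls of Postn, Igfbp4 and Mgl2 held in each of the 6 fits that left out 1 library. Slc25a37 missed the threshold without any 1 of KD 9 or 36N 4, 5 or 6, with the highest adjusted p at 0.064. Lpl, Cxcl12, Tfrc and Gzmb missed the threshold without any 1 of KD 7 or 9 or 36N 4, 5 or 6, with the highest adjusted p at 0.124, 0.212, 0.147 and 0.243. Without KD 7, the KD library lowest in T and NK markers, 7 T and NK cell genes were called higher, and none was without KD 9, 36N 4, 36N 5 or 36N 6. No erythroid gene was called without KD 9 or any 1 36N library, and 3 were lower and 1 higher without KD 8. Dendritic cell genes called lower numbered 1 without KD 9. Stroma genes called were 1 higher and 1 lower in each fit that left out 1 library other than KD 8. Without KD 8 they were 3 higher and 5 lower of 20, against 1078 and 940 of all 13118 genes.

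Of 56 G1/S and replication genes 3 were lower (5.36% against 3.24% of all genes called), with Ccnd1, cyclin D1, at 201, 312 and 244 in KD and 787, 608 and 506 in 36N (log2 fold change -1.33 ± 0.21 (SE), adjusted p = 0.0094), and Cdc45, a subunit of the replicative helicase, at 615, 442 and 479 in KD and 932, 852 and 822 in 36N (log2 fold change -0.77 ± 0.16 (SE), adjusted p = 0.0281). The mitotic list of 63 (3.17% called) had Mybl2 called lower and Pttg1, securin, called higher, at 352, 182 and 313 in KD and 70.4, 103 and 81.3 in 36N (log2 fold change 1.68 ± 0.27 (SE), adjusted p = 0.00964). In the repair lists described here, Xrcc3, a protein of strand exchange, was the 1 gene lower of 46 in homologous recombination (2.17%), at 203, 167 and 131 in KD and 338, 308 and 283 in 36N (log2 fold change -0.91 ± 0.20 (SE), adjusted p = 0.0376). The shares called in the mitotic and homologous recombination lists were below the 3.24% of all genes. Mgmt, which removes methyl groups from guanine, was not called, at 69, 46.7 and 52.9 in KD and 86, 73.8 and 44.7 in 36N (adjusted p = 0.719). None of the 26 Fanconi, 19 end joining, 44 excision repair or 26 checkpoint genes was called. Without KD 8, checkpoint genes were 8 lower and 1 higher, and homologous recombination genes (median -0.27) were 7 lower and 1 higher. In that fit 940 of all 13118 genes were lower and 1078 higher. Without KD 9 or any 1 36N library no homologous recombination gene was called. Trp53, at 3909, 2975 and 3609.8 in KD and 2839, 3143 and 2862 in 36N, and its target Cdkn1a, at 358, 306 and 373 in KD and 499, 484 and 548 in 36N, were not called (adjusted p = 0.398 and 0.0787); Cdkn1a was called lower with equal totals (0.0368) and in a fit of all 9 untreated libraries (0.0385). The call of Ccnd1 held in each of the 6 fits that left out 1 library. Pttg1 missed the threshold without KD 9 (adjusted p = 0.0576). Cdc45 and Xrcc3 missed the threshold without any 1 of KD 9 or 36N 4, 5 or 6, with the highest adjusted p at 0.13 and 0.165. The G1/S count lower was 1 without KD 9 or any 1 36N library.

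Of 74 nuclear genes of oxidative phosphorylation 73 had a positive fold change (median 0.31), and 67 with equal totals (median 0.19), but none was called. Without KD 8, 38 were called higher, against 1078 of all 13118 genes. All 13 mitochondrially encoded genes had positive fold changes (median 0.42) and none was called; 11 were called higher without KD 8, and with quantile normalization their median was 0. Among 79 cytosolic ribosomal protein genes the 1 call (1.27%) was Rplp0, described with its processed copies. The glycolysis and pentose phosphate list had 1 call among 33 genes (3.03%) and the cholesterol list 1 among 34 (2.94%), both below the 3.24% of all genes. Ldhb, a lactate dehydrogenase subunit, was 177, 100.3 and 134 in KD and 53.5, 27.5 and 33.1 in 36N (log2 fold change 1.84 ± 0.32 (SE), adjusted p = 0.0131). Abcg1, a cholesterol exporter of macrophages, was 819, 870.0 and 688 in KD and 292, 468 and 219.9 in 36N (log2 fold change 1.34 ± 0.25 (SE), adjusted p = 0.0167). In the type I interferon list 2 of 56 were higher, Zbp1 and Phf11b (3.57%, near the 3.24% of all genes called). Zbp1, a sensor of nucleic acids in Z form, was 175, 255 and 311 in KD and 69.9, 85 and 136 in 36N (log2 fold change 1.36 ± 0.29 (SE), adjusted p = 0.0339). The list's median was 0.46. No member of the list was called with equal totals, or without KD 9, 36N 4 or 36N 5, while 7 were higher without 36N 6 and 5 without KD 8. Ldhb missed the threshold without any 1 of KD 7 or 9 or 36N 5, with the highest adjusted p at 0.0712. Abcg1 missed the threshold without any 1 of KD 7 or 9 or 36N 4, with the highest adjusted p at 0.0615. Zbp1 missed the threshold without any 1 of KD 9 or 36N 4 or 5, with the highest adjusted p at 0.175. Abcg1 also missed it in a fit of all 9 untreated libraries (adjusted p = 0.0516).

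In the list of Toll-like receptors and pattern sensing 4 of 43 genes were called (9.30% against 3.24% of all genes), 3 higher and 1 lower. The higher genes were Nlrp1b, Cd14 and Clec7a, with log2 fold changes of 2.96, 2.38 and 0.64, and the lower gene was Nlrp1a, at -6.86. Ifngr1, a chain of the interferon gamma receptor, was 5003, 4257 and 5007 in KD and 3119, 3228 and 2612 in 36N (log2 fold change 0.67 ± 0.14 (SE), adjusted p = 0.0323), and Clec7a, the beta-glucan receptor Dectin-1, was 2409, 2014 and 2498 in KD and 1437, 1395 and 1599 in 36N (log2 fold change 0.64 ± 0.14 (SE), adjusted p = 0.0339). Ccl3, a chemokine of activated macrophages, was 501, 397 and 469 in KD and 315, 244 and 201 in 36N (log2 fold change 0.86 ± 0.19 (SE), adjusted p = 0.0421). Sulf2, a sulfatase that edits heparan sulfate, was the 1 gene called of 33 p53 targets (3.03%, below the 3.24% of all genes), at 1386, 1492 and 1723 in KD and 797, 667 and 718 in 36N (log2 fold change 1.07 ± 0.14 (SE), adjusted p = 0.00262). Sdf2l1, a chaperone cofactor of the endoplasmic reticulum, was the 1 called of 32 stress response genes (3.125%, also below that share), at 1179, 896 and 1368 in KD and 711, 688 and 552 in 36N (log2 fold change 0.81 ± 0.18 (SE), adjusted p = 0.0401). None of 27 NF-kB genes and none of 15 BCL2 family genes was called. Bcl2l11, which encodes the death-promoting protein BIM, was 504, 574 and 463 in KD and 299, 233 and 366 in 36N (adjusted p = 0.052), and the survival gene Bcl2 was 930.4, 1489 and 1129 in KD and 1974, 1832 and 1621 in 36N (adjusted p = 0.0897). The KD libraries lay above 36N for Bcl2l11 and below 36N for Bcl2, a separation that occurred in 22.6% of all genes. Neither gene passed the threshold, though both did in a fit of all 9 untreated libraries (adjusted p = 0.0489 for Bcl2l11 and 0.0486 for Bcl2). The call of Sulf2 held in each of the 6 fits that left out 1 library. Ccl3 missed the threshold without any 1 of KD 7 or 9 or 36N 5 or 6, with the highest adjusted p at 0.175. Ifngr1, Clec7a and Sdf2l1 missed the threshold without any 1 of KD 7 or 9 or 36N 4, 5 or 6, with the highest adjusted p at 0.153, 0.179 and 0.184. With equal totals Ifngr1, Clec7a, Ccl3 and Sdf2l1 missed it as well (adjusted p = 0.0616, 0.067, 0.0738 and 0.0628).

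Some of the largest differences were in genes that read near 0 in all libraries of 1 group. Rbm44, an RNA-binding protein of germ cells, read 446, 328 and 342 in KD libraries, against 0.491, 0.95 and 2.06 in 36N libraries (log2 fold change 7.48 ± 0.39 (SE), adjusted p = 6.72e-06). Fam71b, of the same list of germline genes, read 101, 94.9 and 70.7 in KD libraries, against 0, 0.593 and 0.677 in 36N libraries (log2 fold change 6.00 ± 0.52 (SE), adjusted p = 2.40e-04), and Scml2, a Polycomb protein of male germ cells, read 27.1, 64.1 and 109 in KD libraries, against 0.716, 0 and 7.06 in 36N libraries (log2 fold change 4.61 ± 0.82 (SE), adjusted p = 0.0139), with 36S (87.2, 47.2 and 68.5) at the KD level. Xlr, an X-linked lymphocyte-regulated gene, was lower at 1.9, 4.5 and 3.66 in KD and 45.3, 169 and 14.1 in 36N (log2 fold change -3.55 ± 0.78 (SE), adjusted p = 0.0377) and read 1226, 1003 and 995 in 36S. Of 41 listed germline and Xlr genes only 10 reached the filter and were tested. Rbm44, Fam71b and Scml2 reached it through KD alone and Xlr through 36N alone, so the share called partly follows from the filter. Of the 10 tested, 4 were higher and 1 lower (50.0%, against 3.24% of all genes called). Without KD 9 these counts were 2 and 0. Msi1, an RNA-binding protein of stem cells, read 54.1, 61 and 43 in KD libraries, against 0, 0 and 1.88 in 36N libraries (log2 fold change 5.22 ± 0.64 (SE), adjusted p = 0.00164). Raet1d, a ligand of the NK cell receptor NKG2D, read 131, 85 and 146 in KD libraries, against 4.81, 3.31 and 8.14 in 36N libraries (log2 fold change 4.28 ± 0.42 (SE), adjusted p = 4.30e-04). On the low side, Galnt9, an enzyme that starts O-linked glycans, read 0, 0.979 and 2.7 in KD libraries, against 78, 150.2 and 227 in 36N libraries (log2 fold change -6.17 ± 0.60 (SE), adjusted p = 4.30e-04), and Eps8l1, an adaptor of the actin skeleton, read 2.79, 2.4 and 11.5 in KD libraries, against 147, 177 and 250.1 in 36N libraries (log2 fold change -5.10 ± 0.51 (SE), adjusted p = 4.68e-04). Vmn2r96, a vomeronasal receptor gene, read 7.46, 16.8 and 15 in KD libraries, against 464, 563 and 452 in 36N libraries (log2 fold change -5.20 ± 0.31 (SE), adjusted p = 1.59e-05). Susd5, a sushi domain gene, was 109, 57.8 and 80.9 in KD and 10.3, 7.03 and 0 in 36N (log2 fold change 4.17 ± 0.80 (SE), adjusted p = 0.0209), while Cldn1, a tight junction claudin, was 1.1, 5.55 and 4.89 in KD and 30.3, 69.4 and 75.7 in 36N (log2 fold change -3.68 ± 0.59 (SE), adjusted p = 0.0094), and Camk2b, a calcium-dependent kinase subunit, was 0.679, 3.71 and 15.1 in KD and 40.2, 90.9 and 40.2 in 36N (log2 fold change -3.42 ± 0.76 (SE), adjusted p = 0.0377). Mrgpra2b, a receptor of the Mas-related family, was 0, 2.85 and 8.8 in KD and 71, 55.6 and 87.1 in 36N (log2 fold change -4.41 ± 0.74 (SE), adjusted p = 0.0114). All 3 libraries of the lower group lay below the other 3 for each of these genes. The calls of Mrgpra2b, Rbm44, Fam71b, Msi1, Raet1d, Galnt9, Eps8l1 and Vmn2r96 held in each of the 6 fits that left out 1 library. Cldn1 missed the threshold without 36N 5 (adjusted p = 0.0585). Scml2 missed the threshold without KD 9 (adjusted p = 0.0993). Susd5 missed the threshold without any 1 of KD 7 or 9, with the highest adjusted p at 0.0975. Camk2b missed the threshold without any 1 of KD 7 or 36N 4, 5 or 6, with the highest adjusted p at 0.179. Xlr missed the threshold without any 1 of KD 7 or 9 or 36N 4 or 5, with the highest adjusted p at 0.182.

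The Nlrp1 cluster on chromosome 11 had paralogs called in opposite directions. These genes encode inflammasome sensors, and the set of intact copies differs between inbred strains. Nlrp1a (chr11:71092236-71144704, minus strand) read 0, 4.63 and 0 in KD libraries, against 171, 200.2 and 255 in 36N libraries (log2 fold change -6.86 ± 0.65 (SE), adjusted p = 3.94e-04), and its 36S values, 197, 179 and 215, were at the 36N level. The pseudogene Nlrp1c-ps beside it was listed at 0 in all 3 KD libraries, against 36.3, 49.1 and 97.3 in 36N. Nlrp1b (chr11:71153102-71230733, minus strand) went the other way, at 431, 596 and 485 in KD and 48.8, 53.4 and 97.5 in 36N (log2 fold change 2.96 ± 0.27 (SE), adjusted p = 2.98e-04), with 20.2, 67.4 and 65.4 in 36S. The groups were fully apart for all 3 genes. How the reads of such similar paralogs were divided is not given, so the single-gene values are uncertain. All groups are labelled C57BL/6, and whether their genetic background differs was not tested, here or for the processed copies described next. The calls of Nlrp1a, Nlrp1b and Nlrp1c-ps held in each of the 6 fits that left out 1 library.

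Pseudogenes were among the genes called, and those of the processed kind are DNA copies of spliced mRNAs. Of 548 tested pseudogenes of any kind 33 were called (6.02%, against 3.24% of all genes), 18 higher and 15 lower. For 18 of the 33 (11 higher, 7 lower) a protein-coding transcript matched at least 95% over at least 80% of the copy, which gave 13 parent genes. These 18 are called processed copies by that match, and their annotated kind was not checked. These genes were singled out after their values were seen. Of the 13 parents only Rplp0, a protein of the large ribosomal subunit (chr5:115559467-115563727, plus strand), was itself called. Rplp0 read 6892, 4428 and 6562 in KD libraries, against 14258, 13640.1 and 10779.8 in 36N libraries (log2 fold change -1.13 ± 0.20 (SE), adjusted p = 0.0133), and 13274, 12042 and 11374 in 36S. Its 4 called copies moved in the opposite direction. Gm8730 (chr8:102864845-102865798, minus strand) read 2873, 1733 and 2717 in KD libraries, against 2.82, 6.19 and 1.96 in 36N libraries, Gm9625 read 661, 517 and 640.4 in KD libraries, against 3.75, 4.45 and 4.88 in 36N libraries, and Gm6278 and Gm14165 read at most 132 in KD and at most 0.946 in 36N. A family is here the parent with its called copies only, and copies that were not called were left out. Summed, the 4 copies held 34.9, 34.4 and 34.9% of the Rplp0 family in KD, against 0.0527, 0.0779 and 0.0634% in 36N and 0.0498, 0.0539 and 0.0503% in 36S. With the copies added, the family read 10588, 6751 and 10075 in KD, against 14266, 13651 and 10787 in 36N, and the groups still did not overlap. The gap was smaller than for Rplp0 alone, which was fixed in advance because each copy added was called higher in KD. The calls of Gm8730, Gm9625 and Gm6278 held in each of the 6 fits that left out 1 library. Rplp0 missed the threshold without any 1 of 36N 4 or 5, with the highest adjusted p at 0.068. Gm14165 missed the threshold without any 1 of KD 7 or 9, with the highest adjusted p at 0.1.

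The same stretch of Gm8730 and Rplp0, and of Gm1821 and its parent Ubb, shows how similar copy and parent are. Gm8730 and Rplp0 differ at 12 of 954 aligned bases and Gm1821 and Ubb at 10 of 685, in GENCODE M21 transcripts of mm10. In the 80 bases printed, which code for protein in the parent, capitals mark the differing positions, 3 in the first pair and 5 in the second.
Gm8730: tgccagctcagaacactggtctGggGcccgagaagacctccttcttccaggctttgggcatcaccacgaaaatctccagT
Rplp0: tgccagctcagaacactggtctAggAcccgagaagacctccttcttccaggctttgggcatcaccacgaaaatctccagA
Gm1821: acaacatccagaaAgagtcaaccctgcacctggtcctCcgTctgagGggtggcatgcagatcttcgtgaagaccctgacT
Ubb: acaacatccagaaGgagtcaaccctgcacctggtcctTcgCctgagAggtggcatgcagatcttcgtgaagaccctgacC

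In the other families given here the parent was expressed in every library and the copy mainly in those of 1 group. These copies were taken from the called pseudogenes, so a difference between KD and 36N was fixed by that choice. Copies that were not called were not examined. Gm1821 (chr14:46084028-46085000, plus strand) read 4672, 3262 and 4789 in KD libraries, against 222, 186 and 170.1 in 36N libraries (log2 fold change 4.44 ± 0.18 (SE), adjusted p = 6.37e-07), while the polyubiquitin gene Ubb was not called, at 13274, 8649 and 12886 in KD and 13343, 12409.9 and 10558 in 36N (adjusted p = 0.857). The copy held 26.03, 27.4 and 27.1% of the Ubb family in KD, against 1.64, 1.47 and 1.59% in 36N. Gm6969, a copy of the mitochondrial gene Cox7a2l, read 754, 454 and 739 in KD libraries, against 0, 3.54 and 3.82 in 36N libraries, and held 37.1, 33.8 and 34.1% of its family in KD, against 0, 0.196 and 0.256% in 36N. Gm7887, a copy of Pcnp, read 157, 98.5 and 136 in KD and was listed at 0 in all 36N and 36S libraries. In the opposite direction, the Rpl15 copy Gm10020 was listed at 0 in all KD and 36S libraries, against 105, 107 and 64.4 in 36N. The Ncoa4 copy Gm6768 read 2.20, 0 and 0 in KD, against 104, 95.9 and 79.6 in 36N, and the Psmb5 copy Gm3375 read 1.09, 0 and 0 in KD, against 47.3, 32.6 and 27.1 in 36N. The 36S libraries read 336, 221 and 251 for Gm1821, at most 3.30 for Gm6969, and 0 for the last 2 copies. How reads were divided between copy and parent is not given in the sources used here, so the single-gene values are uncertain. The calls of Gm1821, Gm6969, Gm7887, Gm10020, Gm6768 and Gm3375 held in each of the 6 fits that left out 1 library.

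**Figure D4:**
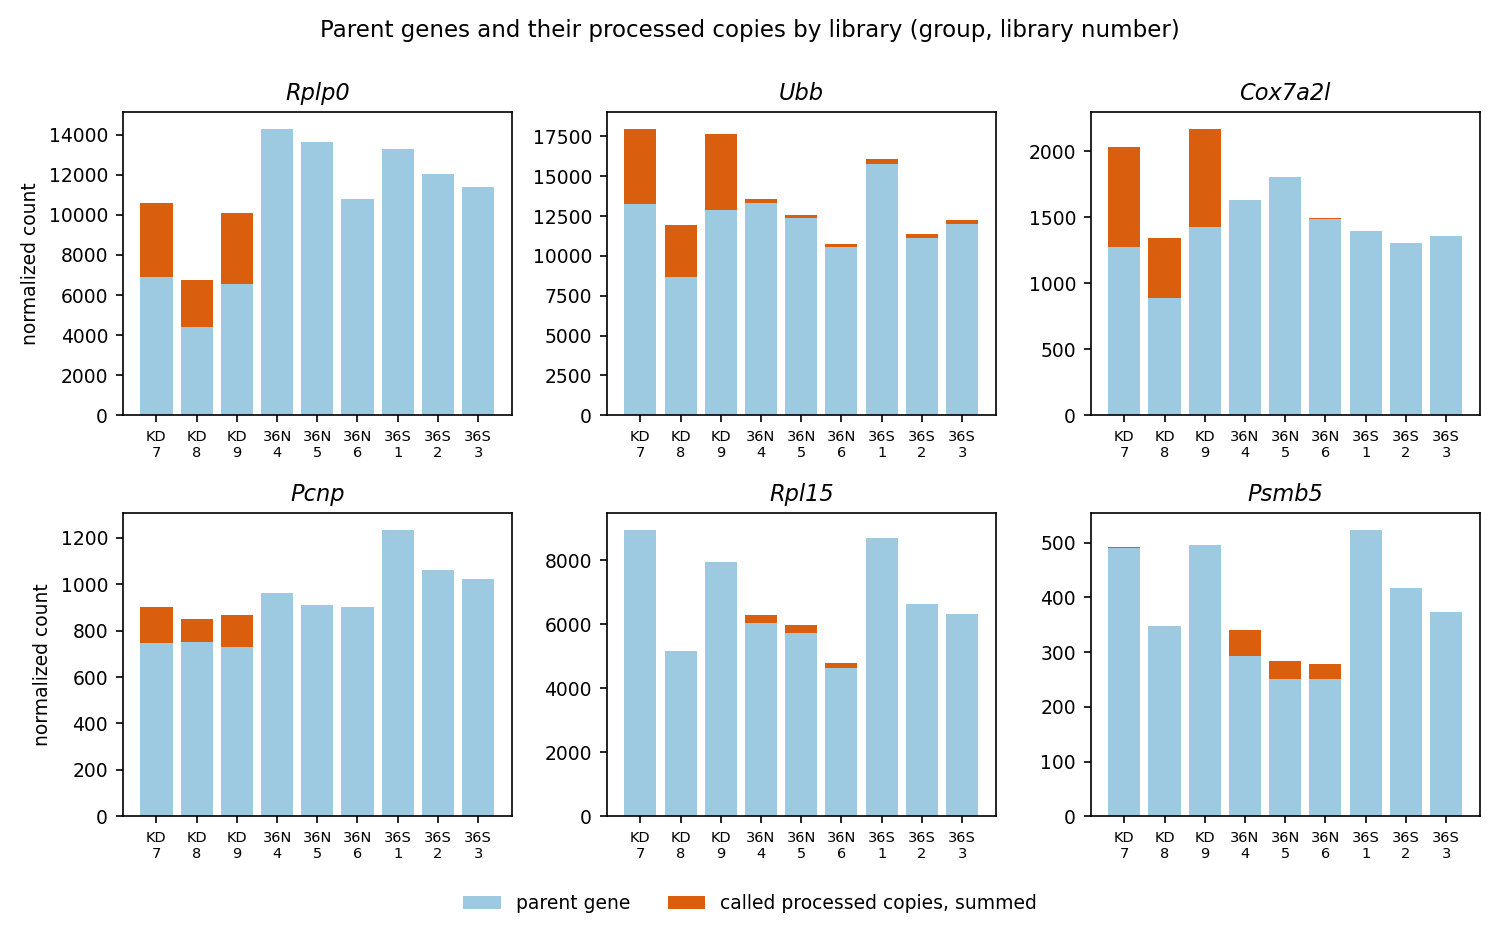
Stacked bars give the normalized count of 6 parent genes (blue) and of their called processed copies, summed (orange), in each KD, 36N and 36S library from left to right, with a y axis of its own for each family. The orange share is visible in the 3 KD libraries for Rplp0, Ubb, Cox7a2l and Pcnp, and in the 3 36N libraries for Rpl15 and Psmb5.

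The genes around the modified allele were called at a rate near that of all genes. Gfi1 lies at chr5:107716657-107726036 in mm10. Within 10 Mb of it 158 genes were tested and 5 were called, 3.16% against 3.24% of all genes. They were Galnt9 and Zfp951, 2.82 and 2.86 Mb away, and 1500011B03Rik, Msi1 and Rplp0, 7.08 to 7.83 Mb away.

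The 36S libraries, which entered none of these tests, were set beside each difference. The 36S mean was nearer to the 36N mean for 298 of the 425 called genes (70.1%) and nearer to the KD mean for 127 (29.9%). The same share over all genes tested was not computed. Whether 70.1% is particular to the called genes therefore cannot be said. For genes higher in KD the split was 202 against 64, and for genes lower in KD it was 96 against 63. Prdm16, Rbm44, Apoe, Cd14, Nlrp1a and Eps8l1 were of the kind in which KD stood apart. Hoxb4, Hoxa5, Scml2, Zfp575 and Rnase2a were of the kind in which 36N stood apart, and Zfp575, a zinc finger gene, read 267, 649 and 609.9 in KD libraries, against 14.2, 18.3 and 12.7 in 36N libraries, and 207, 299 and 416 in 36S. For other genes 36S lay beyond 36N on the far side from KD, as for Ms4a3 and Itgb7, and this was so for 161 of the 425 genes. Among the 138 genes called at 4-fold or more, 97 had 36S nearer to 36N. The share nearer to 36N was 63.6% without KD 8 and 74.7% without 36N 6, the lowest and highest of the fits that left out 1 library. The call of Zfp575 held in each of the 6 fits that left out 1 library.

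**Figure D5:**
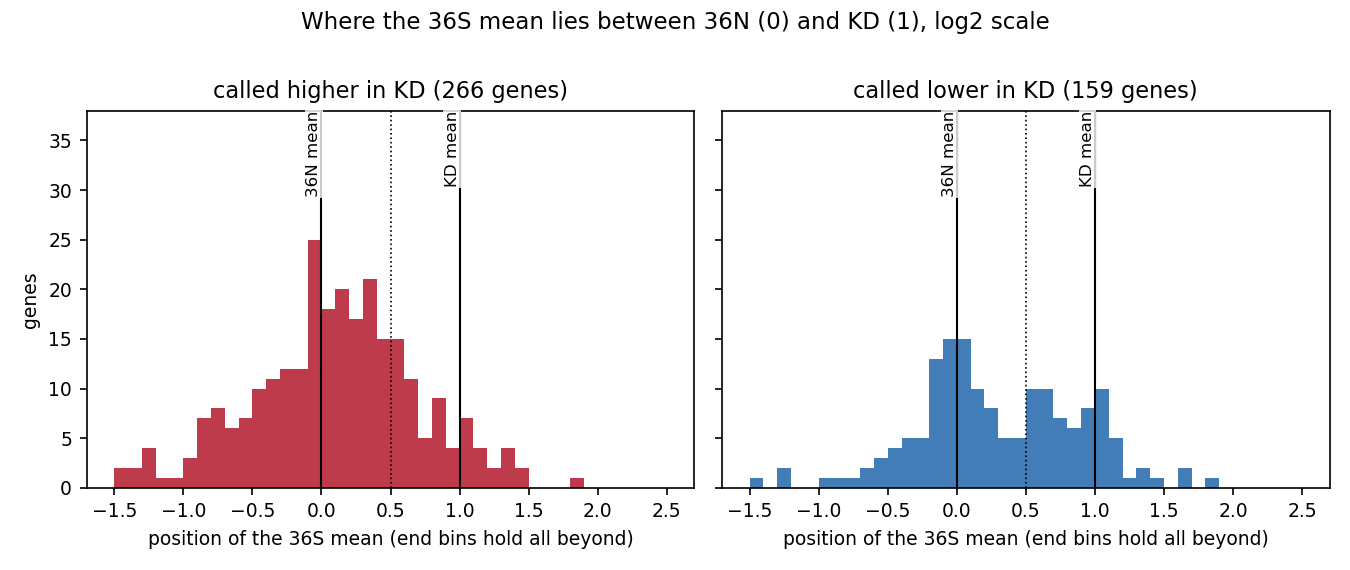
Histograms of the position of the 36S group mean on a scale where 0 is the 36N mean and 1 is the KD mean, on the log2(normalized count + 1) scale, for the 266 genes called higher (left) and the 159 called lower (right) in KD. Left of the dotted midpoint at 0.5, where 36S is nearer to 36N, lie 202 of the higher and 96 of the lower genes.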

How the data were processed

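RNA-seq of total leukemic marrow was analysed in 3 KD and 3 36N untreated libraries, with 3 36S libraries beside them. The deposited tables hold normalized counts, a signal per gene that the authors scaled between libraries; Salmon, DESeq2 and the build mm10 are named without versions, per the submitters' processing notes. Whole reads could not be recovered, so read depth cannot be stated and counting error is not given. The KD and 36N tables were joined on gene name; their 36S columns were identical (largest difference 0), so both share 1 scale.

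The test was limma-trend (limma 3.58.1, R 4.3.3) on log2(value + 1), for the 13118 genes that reached 10 in 3 or more of the 6 libraries; p-values were adjusted by Benjamini-Hochberg across them, and calls were made under 0.05. The fit was tested on simulated data with known changes. Members, gene lists and named genes were chosen with earlier results of these data known. Named genes were the 12 largest called changes in each direction with a mean of at least 50 in 1 group and no overlap, passing over pseudogenes and unnamed gene models, up to 4 called members of each list (2 of lowest p where none was called), and a fixed set of regulators. Other genes named, among them the pseudogenes and their parents, were chosen after their values were seen. Some genes that the rule names are not reported here. Pseudogenes were matched to coding transcripts (GENCODE M21) with BLAST 2.17.0, and promoters come from RefSeq GRCm38.p6. Alternatives covered the pseudocount, the filter on low values, scaling, the variance model, the libraries fitted and leaving out each library.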

Additional observations from a re-analysis of the deposited data

How the results depend on the processing

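The 425 calls (266 higher, 159 lower) were recomputed under 10 other settings and 6 fits that left out 1 library. Equal totals gave 176 higher. A fit without the mean-variance trend gave 203 calls, 117 higher and 86 lower. Library weights gave 3721 calls, 1890 higher and 1831 lower, with 940 at 2-fold or more, and put the 36S mean nearer to 36N for 64.6% of the genes called. Leaving out 1 library gave 138 (without KD 9) to 2018 (without KD 8) calls, 76 to 1078 higher, 60 to 940 lower, 134 to 576 at 2-fold or more, and 63.6 to 74.7% with 36S nearer to 36N. The cause was not tested. None of the 89 named genes that were called changed sign under these settings. Among genes named but not called, Cebpa did with equal totals and without KD 9, mt-Nd2 with quantile normalization and Kit without 36N 6, and the median of the GFI1-repressed list did so with equal totals (-0.02, against 0.10). Of 130 genes named by rule, 89 were called and 37 stayed called in all 6 fits that left out 1 library; 13 of the 130 lost their call with equal totals, 47 without the trend and 9 in a fit of all 9 untreated libraries, where 7 gained one. No paired analysis was possible because KD and 36N libraries share no replicate number. Depth is unknown, so differences near 0 cannot be set against counting error.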
